A study of Mus musculus with 14 samples.

Results

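The nuclear-encoded subunits of the mitochondrial respiratory chain and of ATP synthase were followed in 3 cell populations of the injured mouse liver. Members were the genes whose symbols matched the Nduf, Sdh, Uqcr, Cox4 to Cox8 and Atp5 name patterns in the deposited table of RPKM values (reads scaled by transcript length and by the mapped reads of the library), with the row of highest mean kept for each symbol. This gave 85 of the 20377 symbols in the table: 37 of complex I, 4 of complex II, 8 of complex III, 19 of complex IV and 17 of complex V. Of these, 78 reached at least 1 RPKM in at least 4 libraries and were tested among 12638 genes. The name pattern also caught Cox4nb, which encodes a part of the endoplasmic reticulum membrane complex, and Atp5s and Atp5sl, which are related to ATP synthase by name but are not among its core subunits. The other 82 members encode subunits or close relatives of subunits, such as Cox7a2l, which helps to join complexes into supercomplexes.

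Complexes I and II pass electrons from NADH and succinate to ubiquinone, complex III passes them to cytochrome c and complex IV to oxygen, and complex V makes ATP from the proton gradient that I, III and IV build. Most subunits are encoded in the nucleus and imported, and several complex IV subunits exist as isoforms that differ between tissues. Hepatocytes are rich in mitochondria, which carry out fatty acid oxidation and parts of the urea cycle beside ATP synthesis, whereas the cells lining bile ducts hold fewer of them. Genes encoded by mitochondrial DNA were not analysed here.

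The mice were C57BL/6 adult chimeras in which mature hepatocytes carried a red fluorescent marker, mTomato. All had received 0.1% DDC, a dihydrocollidine compound that raises porphyrins and injures bile ducts, for 5 to 8 weeks, so that none of the groups is an uninjured control. Hepatocyte-derived ductal cells (5 libraries) were MIC1-1C3+, negative for CD11b, CD26, CD31 and CD45, low in side scatter and mTomato+. Cholangiocyte-derived ductal cells (5 libraries) passed the same gate but were mTomato-negative, so their origin was assigned by absence of the marker. The sample titles call the hepatocyte-derived ductal cells donor-derived ducts and the cholangiocyte-derived ones host-derived ducts. Between these groups, differences of cell origin and differences of donor and host cannot be told apart. Hepatocytes of DDC-treated mice made up 4 libraries, although the series design names 3. Libraries are called by the number in their column. The labels do not say that the libraries of a group come from separate mice, so the p-values measure the spread between these libraries only. In such bulk samples, fewer cells of a type and less RNA per cell cannot be told apart.

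The labelled cell types were met by their markers: all 6 hepatocyte markers were called lower and all 6 biliary markers higher in each ductal group relative to hepatocytes. Krt19, a keratin of bile duct cells, averaged 42.5 RPKM in hepatocyte-derived and 658 RPKM in cholangiocyte-derived ductal cells, against 2.86 RPKM in hepatocytes. The scale of the libraries differed by group. The factors that bring the median gene ratio to a common level were 1.14 to 1.19 in hepatocyte-derived ductal cells, 1.14 to 1.23 in cholangiocyte-derived ductal cells and 0.639 to 0.697 in hepatocytes, so counts of calls against hepatocytes are given as deposited and after this rescaling. Hepatocyte library 118 stood apart from the other 3 hepatocyte libraries. Its summed macrophage markers held 0.194% of all RPKM, against 0.00484% to 0.00686% in the others. Here and below, all RPKM means the sum over the row kept for each symbol, not over every row of the deposited values. The 35 tested members with transcripts under 700 nucleotides were higher in library 118 by a median of 0.70 on the log2 scale. Without it, 5 members changed their call in hepatocyte-derived and 8 in cholangiocyte-derived ductal cells against hepatocytes, and these are named with their complexes.

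In all 5 complexes, most respiratory chain members were lower when hepatocyte-derived ductal cells were set against hepatocytes. Of the 78 members tested, 66 were called lower, 3 were called higher and 9 were not called (limma on log2(RPKM + 1), adjusted p under 0.05 after Benjamini-Hochberg adjustment over all genes tested). Over all tested genes, 14.8% were called lower and 66.2% higher, so as deposited the members went the opposite way to most genes. The median log2 fold change of the members was -0.62, beside 0.67 for all genes. After rescaling, 77 members were called lower and 1 higher, with a median of -1.38, where 36% of all genes were called lower and 37.9% higher and their median was 0.03. Without hepatocyte library 118, 63 members were called lower and 5 higher, with a median of -0.46, where 15.2% of all genes were called lower and 68.7% higher. Quantile normalization, which gives every library the same distribution of values, called 55 members lower and 3 higher, with a median of -0.41. There 32.7% of all genes were called lower and 36.4% higher. It turned the sign of 9 members, counting only members called before or after it.

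The lower calls were spread over the 5 complexes. Complex I had 29 of 36 tested members called lower, with a median log2 fold change of -0.54. All 4 members of complex II (median -0.84) and all 8 of complex III (median -0.72) were called lower. Complex IV had 11 of 14 called lower and 2 higher (median -0.69), and complex V had 14 of 16 called lower and 1 higher (median -0.60). After rescaling, every tested member of complexes I, II, III and V was called lower and 13 of the 14 of complex IV, with complex medians between -1.63 and -1.33.

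The 5 libraries of one group lay wholly below the 4 of the other for most members. Hepatocyte-derived ductal cells lay below hepatocytes without overlap for 60 of the 78 members and above them for 1, beside 12.4% and 59.9% of all tested genes. Summed over all members, the chain held 1.80 ± 0.0951% of the RPKM of all kept rows in hepatocyte-derived ductal cells (SD, n = 5). It held 1.78 ± 0.107% in cholangiocyte-derived ductal cells (SD, n = 5), against 2.38 ± 0.334% in hepatocytes (SD, n = 4). Hepatocyte library 118 stood at 2.88%, and the other 3 hepatocyte libraries averaged 2.22 ± 0.0348%. Both ductal groups therefore lay below every hepatocyte library with or without it.

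**Figure D1:**
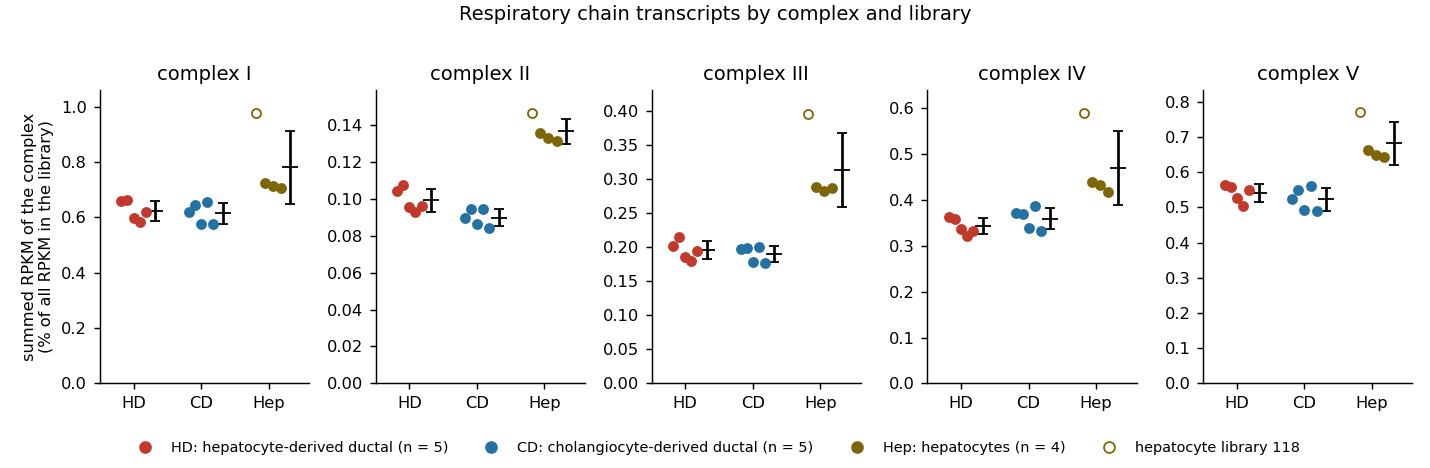
Summed RPKM of the members of each complex, as a percentage of all RPKM in the library, summed over the row kept for each symbol (linear axes from 0). Values are by library, for hepatocyte-derived ductal cells (HD, 5 libraries), cholangiocyte-derived ductal cells (CD, 5 libraries) and hepatocytes (Hep, 4 libraries, with library 118 as an open circle). Complexes are assigned by gene name, with Ndufa4 in complex I. Bars are the mean and SD; in each complex the 10 ductal libraries lie below the 4 hepatocyte libraries, and complex III averages 0.196% in HD, 0.191% in CD and 0.314% in hepatocytes.

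The share of each complex within the chain differed by a few percentage points at most between groups. Complex I members took 34.6% of the summed member RPKM in hepatocyte-derived ductal cells and 34.6% in cholangiocyte-derived ductal cells, against 32.7% in hepatocytes. Complex III took 10.9% and 10.7% in the 2 ductal groups, against 13.1% in hepatocytes. Complex V took 30.0% and 29.4%, against 28.8% in hepatocytes. Complex II took 5.35% to 5.63% in hepatocyte-derived and 4.95% to 5.14% in cholangiocyte-derived ductal cells. Complex IV took 18.5% to 19.3% and 19.9% to 20.6% in the same order. The libraries of the 2 ductal groups thus did not overlap for complexes II and IV, and these differences were not tested. Complexes were assigned by gene name, so Ndufa4, now placed in complex IV, was counted in complex I. Its mean RPKM was higher in hepatocyte-derived than in cholangiocyte-derived ductal cells. The separation for complex IV therefore holds for the grouping by name only, and shares with Ndufa4 moved to complex IV were not computed. Hepatocytes averaged 5.78% for complex II and 19.6% for complex IV. Library 118 moved these hepatocyte means. Without it, complexes II and IV had 6.01% and 19.4% in hepatocytes. Its complex V share was 26.8%, and without it hepatocytes had 32.3% for complex I, 12.9% for complex III and 29.4% for complex V. The complex V share of cholangiocyte-derived ductal cells was then equal at this rounding to that of hepatocytes, whereas complexes I and III kept their direction. These shares do not depend on the scaling of a library.

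The start regions of the members are shown because nuclear genes of the chain are known targets of NRF1 and of the ETS factor GABP, and because a pair of complex IV genes departs from the rest below. RefSeq promoter windows of GRCm38.p6, covering 250 bases before and 50 after the annotated start, were matched for 69 of the 85 members. The NRF1 core TGCGCA stood in 18 of the 69 (26.1%), beside 14.4% of 10003 windows of tested genes. The ETS core CCGGAAG, searched on both strands, stood in 15 (21.7%), beside 18.1% of the tested genes' windows. The estrogen-related receptor half-site AAGGTCA stood in 8 (11.6%, beside 3.35%) and the YY1 core AAGATGG in 11 (15.9%, beside 7.22%). The same 4 strings stood in 8.06%, 9.12%, 4.66% and 6.48% of all 27025 windows. The matches overlap no site measured here and are a description of the letters only.

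The sequences below are the 250 bases before the start, read 5′ to 3′ on the gene's own strand, from RefSeq on GRCm38.p6. For complexes II, III and IV they are from the member with the smallest adjusted p in the comparison with hepatocytes among those with an NRF1 or ETS core in these 250 bases. Capitals mark those cores. Sdha (chr13:74350241-74350490, minus strand) holds 2 NRF1 cores close to the start, Uqcr11 (chr10:80406822-80407071, minus strand) holds 1 ETS core, and Cox6a1 (chr5:115348959-115349208, minus strand) holds 1 of each. Cox7a1 (chr7:30183921-30184170, plus strand) and Cox6b2 (chr7:4753095-4753344, minus strand), the members that differed between the ductal groups, hold none of the 4 strings. The windows of Atp5b, Cox5a and Uqcrfs1, called lower in both ductal groups, hold none of them either. As Sdha, Uqcr11 and Cox6a1 were picked for holding a core, the lack of one does not set Cox7a1 and Cox6b2 apart.
Sdha: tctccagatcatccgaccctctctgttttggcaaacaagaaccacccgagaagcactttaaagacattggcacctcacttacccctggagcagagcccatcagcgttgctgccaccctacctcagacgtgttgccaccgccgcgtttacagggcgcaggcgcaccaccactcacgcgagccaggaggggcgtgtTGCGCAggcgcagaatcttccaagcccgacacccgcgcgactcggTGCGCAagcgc
Uqcr11: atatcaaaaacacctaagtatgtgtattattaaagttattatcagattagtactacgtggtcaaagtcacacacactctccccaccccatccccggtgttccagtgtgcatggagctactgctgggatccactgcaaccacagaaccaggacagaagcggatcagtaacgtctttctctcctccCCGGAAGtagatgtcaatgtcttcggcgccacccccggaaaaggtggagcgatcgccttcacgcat
Cox6a1: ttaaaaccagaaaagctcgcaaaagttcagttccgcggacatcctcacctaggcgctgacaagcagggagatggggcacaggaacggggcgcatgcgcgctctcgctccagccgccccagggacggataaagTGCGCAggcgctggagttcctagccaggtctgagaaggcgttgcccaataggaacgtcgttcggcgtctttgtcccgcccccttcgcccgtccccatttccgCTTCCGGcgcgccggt
Cox7a1: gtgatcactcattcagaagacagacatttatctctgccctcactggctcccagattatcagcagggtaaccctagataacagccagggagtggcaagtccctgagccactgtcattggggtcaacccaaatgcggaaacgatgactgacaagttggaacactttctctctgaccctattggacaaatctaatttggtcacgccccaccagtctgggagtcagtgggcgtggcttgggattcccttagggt
Cox6b2: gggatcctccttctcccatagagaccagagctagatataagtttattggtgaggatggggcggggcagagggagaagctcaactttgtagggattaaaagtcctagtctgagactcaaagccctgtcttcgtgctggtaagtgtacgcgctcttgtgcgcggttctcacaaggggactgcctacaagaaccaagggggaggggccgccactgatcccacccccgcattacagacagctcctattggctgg

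In complex I, the entry point for electrons from NADH, no tested member was called higher in either ductal group than in hepatocytes with all libraries. Without library 118, Ndufa6 was called higher in cholangiocyte-derived ductal cells, at a log2 fold change of 0.22 (limma adjusted p = 0.0165), where it had been 0.034. Ndufb9, an accessory subunit of the membrane arm, had 171.55, 172.84, 139.27, 137.71 and 145.44 RPKM in hepatocyte-derived ductal cells, 155.97, 160.93, 133.29, 150.47 and 123.2 RPKM in cholangiocyte-derived ductal cells, and 472.15, 299.13, 294.08 and 296.31 RPKM in hepatocytes. Every ductal library lay below every hepatocyte library, and library 118 gave the 472.15. The log2 fold change was -1.12 (SE 0.143, limma adjusted p = 4.48e-06) for hepatocyte-derived ductal cells over hepatocytes and -1.20 (adjusted p = 1.78e-06) for cholangiocyte-derived ductal cells over hepatocytes. Without library 118 these were -0.95 and -1.04, both still called.

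Ndufa4, named as a complex I subunit but now assigned to complex IV, was the most abundant member of this name group. It averaged 353 ± 33.7 RPKM in hepatocyte-derived and 289 ± 30.8 RPKM in cholangiocyte-derived ductal cells (SD, n = 5 each), against 647 ± 175 RPKM in hepatocytes (SD, n = 4). The log2 fold changes over hepatocytes were -0.84 (limma adjusted p = 9.30e-05) and -1.13 (adjusted p = 4.43e-06). Ndufa1, a small membrane subunit needed for assembly of the complex, averaged 71.9 RPKM in hepatocyte-derived and 65.9 RPKM in cholangiocyte-derived ductal cells, against 152 RPKM in hepatocytes. On the log2 scale it changed by -1.04 and -1.17, both called.

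The smallest called changes of complex I were those of Ndufv2 and Ndufa11. Ndufv2, an iron-sulphur subunit of the NADH-oxidizing module, had a log2 fold change of -0.34 in hepatocyte-derived ductal cells over hepatocytes (limma adjusted p = 0.0475), which was -0.15 (adjusted p = 0.153) without library 118. Ndufa11, a membrane subunit, had a log2 fold change of -0.35 in cholangiocyte-derived ductal cells over hepatocytes (adjusted p = 0.0309), which was -0.19 (adjusted p = 0.105) without that library. Ndufa5 in hepatocyte-derived ductal cells likewise lost its call, with a log2 fold change of -0.42 that was -0.24 (adjusted p = 0.0560) without it. In cholangiocyte-derived ductal cells Ndufa12, Ndufc2, Ndufs4, Ndufs7 and Ndufv2 lost theirs, with log2 fold changes of -0.42 to -0.36 with all libraries and -0.20 to -0.15 without that one. The 7 complex I members not called in hepatocyte-derived ductal cells had log2 fold changes between -0.28 and -0.12. They were Ndufa6, Ndufa12, Ndufb3, Ndufb7, Ndufc2, Ndufs4 and Ndufs7, and all 7 were called lower after rescaling.

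In complex II, succinate dehydrogenase, all 4 subunits were called lower in both ductal groups. Sdha, the flavoprotein that oxidizes succinate and also a citric acid cycle enzyme, had 145.42, 150.23, 137.81, 128.07 and 133.37 RPKM in hepatocyte-derived ductal cells. It had 121.39, 131.62, 125.32, 141.46 and 129.94 RPKM in cholangiocyte-derived ductal cells and 238.87, 261.63, 247.53 and 238.77 RPKM in hepatocytes. The ductal groups overlapped each other and lay below hepatocytes, and library 118 did not stand out for this gene. Its log2 fold changes over hepatocytes were -0.82 ± 0.0718 (SE, limma adjusted p = 7.80e-08) and -0.92 ± 0.0718 (adjusted p = 1.66e-08), and without library 118 they were -0.84 and -0.94.

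The iron-sulphur subunit Sdhb had log2 fold changes over hepatocytes of -0.85 in hepatocyte-derived and -1.11 in cholangiocyte-derived ductal cells. The membrane anchor Sdhc had -0.49 and -0.73, and the other anchor Sdhd had -0.90 and -1.05, all called by limma. Sdhb was the only member whose hepatocyte-derived ductal libraries, at 86.93 to 97.7 RPKM, all lay above the cholangiocyte-derived ones, at 66.84 to 83.0 RPKM. That difference, 0.26 ± 0.121 on the log2 scale (SE), was not called (limma adjusted p = 0.119).

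In complex III, which oxidizes ubiquinol and reduces cytochrome c, all 8 members were called lower in both ductal groups. Uqcrq, a small subunit beside cytochrome b, had the lowest fold change of any member. It had 123.85, 126.95, 114.11, 108.24 and 97.68 RPKM in hepatocyte-derived ductal cells, 129.27, 130.19, 109.36, 138.13 and 95.74 RPKM in cholangiocyte-derived ductal cells, and 719.26, 404.91, 417.65 and 425.51 RPKM in hepatocytes. No ductal library came above 138.13 RPKM and no hepatocyte library below 404.91 RPKM. Over hepatocytes, the log2 fold changes were -2.06 ± 0.165 (SE, limma adjusted p = 3.19e-08) and -1.99 ± 0.165 (adjusted p = 3.24e-08). Without library 118 they were -1.86 and -1.79.

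Uqcr11, the smallest complex III subunit, averaged 83.4 ± 10.4 RPKM in hepatocyte-derived and 81.3 ± 7.29 RPKM in cholangiocyte-derived ductal cells (SD, n = 5 each), against 216 ± 76.8 RPKM in hepatocytes (SD, n = 4). Its log2 fold changes were -1.32 and -1.35, and -1.09 and -1.12 without library 118. Uqcrfs1, the Rieske iron-sulphur protein, had -0.91 and -1.05. The core protein Uqcrc1 had the smallest change of the complex, -0.42 (limma adjusted p = 0.00770) and -0.61. Cyc1, the cytochrome c1 subunit that the name pattern misses, went the same way, with 105 ± 10.7 RPKM in hepatocyte-derived and 95.3 ± 6.33 RPKM in cholangiocyte-derived ductal cells (SD, n = 5 each), against 200 ± 35.6 RPKM in hepatocytes (SD, n = 4), and log2 fold changes of -0.91 and -1.05, both called.

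**Figure D2:**
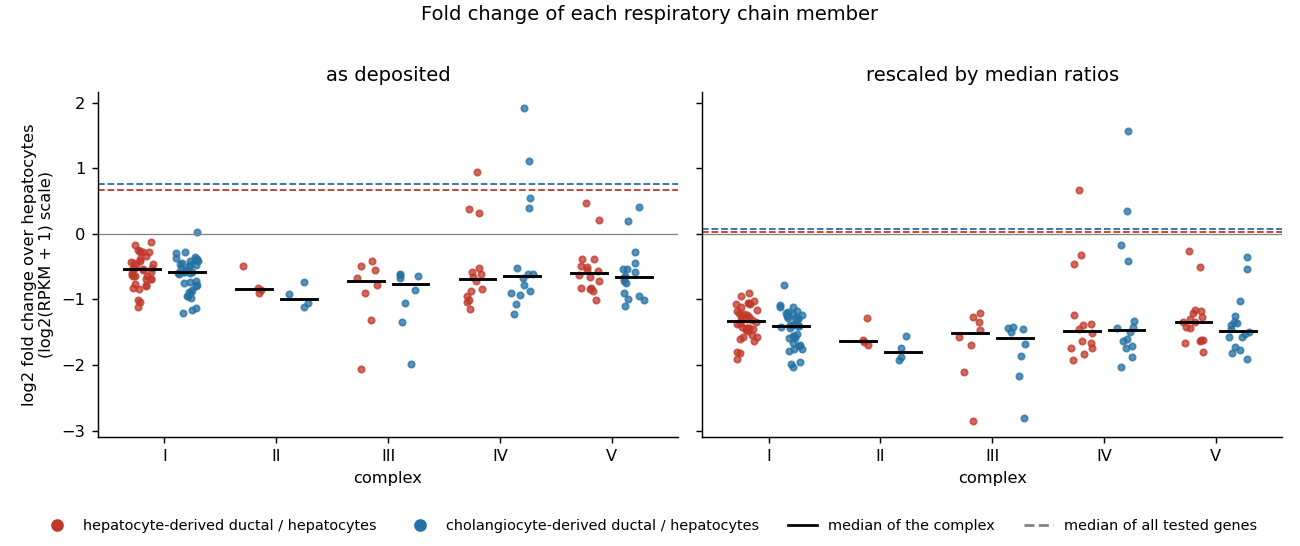
Log2 fold change over hepatocytes of each tested member (points), by complex, for hepatocyte-derived and cholangiocyte-derived ductal cells, as deposited (left) and after rescaling by median ratios (right). Solid bars are complex medians and dashed lines the median of all tested genes; the members lie below the dashed lines in both scalings except for single members of complex IV, among them Cox6b2 at 0.94 and 1.92 as deposited.

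In complex IV, cytochrome c oxidase, the abundant subunits were lower in both ductal groups and the isoform genes Cox7a1 and Cox6b2 behaved otherwise. Cox4i1, the general form of the subunit through which ATP regulates the enzyme, was the most abundant member of the complex. It had 394.71, 396.63, 382.45, 348.08 and 378.5 RPKM in hepatocyte-derived ductal cells, 389.68, 368.17, 350.12, 422.42 and 355.75 RPKM in cholangiocyte-derived ductal cells, and 893.65, 545.6, 517.57 and 520.44 RPKM in hepatocytes. The ductal groups overlapped each other and lay below all hepatocyte libraries. The log2 fold changes over hepatocytes were -0.66 ± 0.143 (SE, limma adjusted p = 0.000595) and -0.68 ± 0.143 (adjusted p = 0.000470).

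Cox5a, a matrix-facing subunit that binds thyroid hormone T2, had log2 fold changes over hepatocytes of -1.04 in hepatocyte-derived and -1.21 in cholangiocyte-derived ductal cells. The forms found in liver and most other tissues, Cox6a1 (-0.87 and -0.78), Cox6b1 (-0.58 and -0.61) and Cox8a (-0.72 and -0.62), were called lower in both groups. Cox7a2, the liver form of subunit VIIa, averaged 78.2 ± 3.73 RPKM in hepatocyte-derived and 82.6 ± 7.5 RPKM in cholangiocyte-derived ductal cells (SD, n = 5 each), against 179 ± 53.6 RPKM in hepatocytes (SD, n = 4). The log2 fold changes were -1.14 and -1.07.

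Cox7a2l, which takes part in the assembly of supercomplexes of III and IV, was the one abundant complex IV member whose values in ductal cells were not below those of most hepatocytes. It had 59.03, 65.52, 47.3, 54.59 and 50.59 RPKM in hepatocyte-derived ductal cells, 60.83, 59.04, 56.89, 57.5 and 57.05 RPKM in cholangiocyte-derived ductal cells, and 73.34, 38.07, 38.21 and 34.72 RPKM in hepatocytes. Library 118, at 73.34, lay above all ductal libraries and the other 3 hepatocyte libraries below all of them. The log2 fold change was 0.32 (limma adjusted p = 0.103) in hepatocyte-derived and 0.40 (adjusted p = 0.0440) in cholangiocyte-derived ductal cells, and without library 118 it was 0.56 and 0.64, both called. When libraries of the same number were blocked the second was 0.36 (adjusted p = 0.0645), and after rescaling both turned negative, -0.46 and -0.41.

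Cox7a1 encodes the heart and skeletal muscle isoform of subunit VIIa, on mm9 chromosome 7 from 30969190 to 30971049, plus strand. It had 6.33, 6.41, 5.91, 6.64 and 6.61 RPKM in hepatocyte-derived ductal cells, 18.04, 22.38, 19.97, 21.52 and 28.74 RPKM in cholangiocyte-derived ductal cells, and 12.57, 9.18, 8.9 and 8.31 RPKM in hepatocytes. The 3 groups did not overlap, with cholangiocyte-derived ductal cells highest and hepatocyte-derived ductal cells lowest. The log2 fold change was -0.53 (limma adjusted p = 0.00151) for hepatocyte-derived ductal cells over hepatocytes and 1.11 (adjusted p = 1.22e-06) for cholangiocyte-derived ductal cells over hepatocytes. After rescaling these were -1.24 and 0.34 (adjusted p = 0.0221).

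Cox6b2 encodes a form of subunit VIb best known from testis. It had 1.93, 1.77, 1.81, 1.96 and 0.79 RPKM in hepatocyte-derived ductal cells, 4.19, 4.59, 4.22, 3.96 and 3.78 RPKM in cholangiocyte-derived ductal cells, and 0.81, 0.09, 0.56 and 0.1 RPKM in hepatocytes. It was low in all groups and passed the filter only through the ductal libraries, so a difference from hepatocytes was bound to appear. Hepatocyte-derived library 611, at 0.79, fell among the hepatocytes, and the cholangiocyte-derived libraries lay above all others. Its log2 fold changes over hepatocytes were 0.94 (limma adjusted p = 0.000160) and 1.92 (adjusted p = 8.89e-08). Under quantile normalization the first was -0.022.

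**Figure D3:**
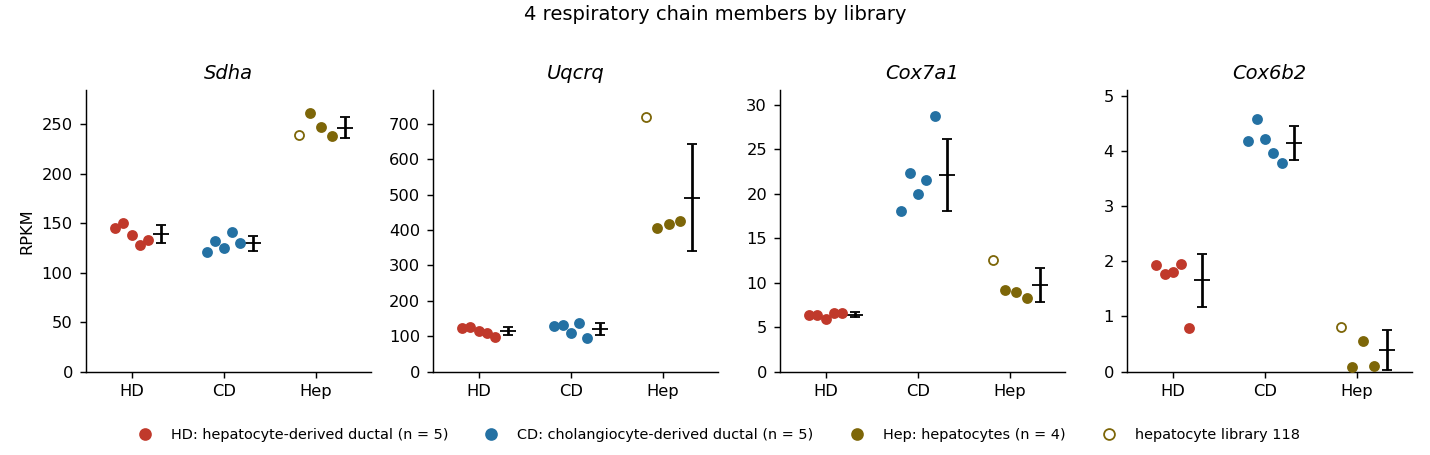
RPKM by library (linear axes from 0) of Sdha, Uqcrq, Cox7a1 and Cox6b2 in hepatocyte-derived ductal cells (HD, 5 libraries), cholangiocyte-derived ductal cells (CD, 5 libraries) and hepatocytes (Hep, 4 libraries, library 118 open), with mean and SD. Sdha and Uqcrq are low in both ductal groups, whereas Cox7a1 lies at 18.04 to 28.74 RPKM in CD and at 5.91 to 6.64 RPKM in HD, and Cox6b2 at 3.78 to 4.59 RPKM in CD.

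The share of one isoform within its pair does not depend on library scaling. Cox7a1 made up 7.55 ± 0.357% of Cox7a1 plus Cox7a2 in hepatocyte-derived ductal cells and 21.2 ± 4.05% in cholangiocyte-derived ductal cells (SD, n = 5 each), against 5.26 ± 0.476% in hepatocytes (SD, n = 4). All 3 differences between groups passed (two-sided exact permutation test, adjusted p = 0.0306 over 27 tests, the smallest p that 5 against 4 libraries allow being 0.00794 before adjustment). In hepatocyte-derived ductal cells the share of Cox7a1 was thus higher than in hepatocytes although its level was lower. Cox6b2 made up 0.580% of its pair with Cox6b1 in hepatocyte-derived and 1.48% in cholangiocyte-derived ductal cells, against 0.0817% in hepatocytes. The exact permutation test gave an adjusted p of 0.0536 for hepatocyte-derived ductal cells against hepatocytes and 0.0306 for each of the other pairs of groups.

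Ndufa4l2, a paralog of Ndufa4 known as a hypoxia-inducible gene, stayed under 1 RPKM everywhere and was not among the tested genes. It had 0.05, 0.04, 0.04, 0.04 and 0 RPKM in hepatocyte-derived ductal cells, 0.57, 0.22, 0.58, 0.13 and 0.12 RPKM in cholangiocyte-derived ductal cells, and 0.79, 0.94, 0.97 and 0.68 RPKM in hepatocytes. Its share of the pair with Ndufa4 was 0.00975% in hepatocyte-derived and 0.114% in cholangiocyte-derived ductal cells, against 0.138% in hepatocytes, with an exact permutation adjusted p of 0.0306 for hepatocyte-derived ductal cells against either other group and 0.769 between the other 2. It overlaps Shmt2 in mm9 and the kit does not mark strand, so reads of the 2 genes may be mixed. The other isoforms that missed the filter, Cox4i2, Cox6a2, Cox7b2, Cox8b, Cox8c and Atp5g2, reached at most 0.49 RPKM in any library. None of the tested shares among them passed. The value of Atp5g2 is uncertain, as 87.6% of its sequence words of 36 bases also occur in other genes.

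In complex V, ATP synthase, 14 of 16 members were called lower in hepatocyte-derived ductal cells and 13 in cholangiocyte-derived ductal cells. Atp5b, the catalytic beta subunit and the most abundant member of all, had 695.38, 692.05, 650.46, 601.18 and 669.3 RPKM in hepatocyte-derived ductal cells, 582.13, 612.55, 534.07, 603.69 and 541.01 RPKM in cholangiocyte-derived ductal cells, and 1064.43, 961.16, 927.5 and 931.31 RPKM in hepatocytes. Both ductal groups lay below hepatocytes, with some overlap between them. The log2 fold changes over hepatocytes were -0.55 ± 0.0875 (SE, limma adjusted p = 3.84e-05) and -0.76 ± 0.0875 (adjusted p = 1.31e-06). Quantile normalization turned the first to 0.35 and the second to 0.078.

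Atp5f1, subunit b of the peripheral stalk, had log2 fold changes over hepatocytes of -0.84 in hepatocyte-derived and -1.10 in cholangiocyte-derived ductal cells. Atp5k, subunit e of the membrane part, had -1.01 and -1.001. Atp5l, subunit g of the membrane part, had -0.50 in hepatocyte-derived ductal cells, called lower. Without library 118 this was -0.39 and not called (limma adjusted p = 0.0508). Of the sequence words of 36 bases of Atp5l, 85.3% also occur in other genes, so its value is uncertain. Of the 3 genes that encode the same c-ring subunit, Atp5g3 carried nearly all the RPKM. It averaged 366 ± 25.8 RPKM in hepatocyte-derived and 337 ± 39.1 RPKM in cholangiocyte-derived ductal cells (SD, n = 5 each), against 655 ± 111 RPKM in hepatocytes (SD, n = 4). Its log2 fold changes were -0.83 and -0.95. Atp5g1 stood at 1.64, 1.17 and 3.30 RPKM in the same groups. Of the sequence words of 36 bases, 67.0% of those of Atp5g1 and 87.6% of those of Atp5g2 also occur in other genes, and none of those of Atp5g3. How reads were shared between copies is not given, so the values of Atp5g1 and Atp5g2 and the split among the 3 genes are uncertain.

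The 3 members that encode no core subunit were among those not called lower in either ductal group as deposited, as were others such as Cox6b2 and Cox7a2l. Atp5sl had log2 fold changes over hepatocytes of 0.47 and 0.41 and Cox4nb of 0.37 and 0.54, called higher in both ductal groups by limma, and Atp5s had 0.21 and 0.20, not called. Without library 118, Atp5s was called higher in both groups, at 0.32 (limma adjusted p = 0.0124) and 0.31 (adjusted p = 0.0157). All 3 turned negative on rescaling, to between -0.54 and -0.18. Without these 3 symbols, hepatocyte-derived ductal cells had 1 subunit gene called higher and 66 called lower.

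The comparison of cholangiocyte-derived ductal cells with hepatocytes shares its hepatocyte libraries with the one above, so the 2 are set side by side only. Here 68 of the 78 members were called lower and 5 higher, with a median log2 fold change of -0.64, where 17.4% of all genes were called lower and 67.1% higher and their median was 0.76. After rescaling, 75 members were lower and 2 higher (median -1.46), where 37.5% of all genes were lower and 41.1% higher. Without library 118, 62 members were called lower and 7 higher, with a median of -0.52, where 17.5% of all genes were called lower and 69.8% higher. Quantile normalization called 56 lower and 5 higher (median -0.44), where 37.7% of all genes were lower and 38.7% higher. It turned the sign of 9 members, counting only members called before or after it. Libraries lay below those of hepatocytes without overlap for 63 members and above for 4, beside 14.7% and 60.5% of all genes. By complex, the medians were -0.59 for I, -0.99 for II, -0.77 for III, -0.65 for IV and -0.66 for V. The members called higher were Cox6b2, Cox7a1, Cox4nb, Cox7a2l and Atp5sl, and without library 118 also Atp5s and Ndufa6.

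Between the 2 ductal groups, the called differences in respiratory chain transcripts were those of Cox7a1 and Cox6b2. Of the 78 members, limma called 0 higher and 2 lower in hepatocyte-derived than in cholangiocyte-derived ductal cells, beside 15.1% of all tested genes called higher and 21% lower. At an unadjusted p under 0.05, 6 members were higher and 3 lower. The median log2 fold change of the members was 0.053, beside -0.029 for all genes, and apart from the 2 called members all lay between -0.31 and 0.29. Cox7a1 had a log2 fold change of -1.63 (SE 0.12, limma adjusted p = 1.04e-07). That of Cox6b2 was -0.98 (SE 0.164, adjusted p = 0.000266).

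The count of 0 higher depended on the fit. After rescaling, 4 members were called higher, Atp5b, Atp5f1, Ndufs1 and Sdhc, with log2 fold changes between 0.20 and 0.28, and 2 lower, where 16.8% of all genes were called higher and 19.2% lower. Summed hepatocyte markers held 0.874% to 1.81% of all RPKM in hepatocyte-derived and 0.585% to 0.906% in cholangiocyte-derived ductal cells. The part of hepatocyte transcripts in the differences between the ductal groups was not tested. Quantile normalization called 8 higher and 4 lower, where 24.3% and 19% of all genes were. The fit on the ductal libraries alone called 7 higher, and leaving out hepatocyte library 118, which enters through the shared estimate of the spread, called 9 higher and 3 lower, where 18.9% and 26.1% of all genes were. Leaving out hepatocyte-derived library 219 or 225, or cholangiocyte-derived library 118 or 225, called 1. Groups did not overlap for 4 members: Cox7a1, Cox6b2 and Ndufa6 were lower in every hepatocyte-derived library, and Sdhb was higher. The background for such separation was 20.4% of all genes lower and 13.4% higher. Ndufa6, an accessory subunit of complex I, had a log2 fold change of -0.31 (limma adjusted p = 0.0752).

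**Figure D4:**
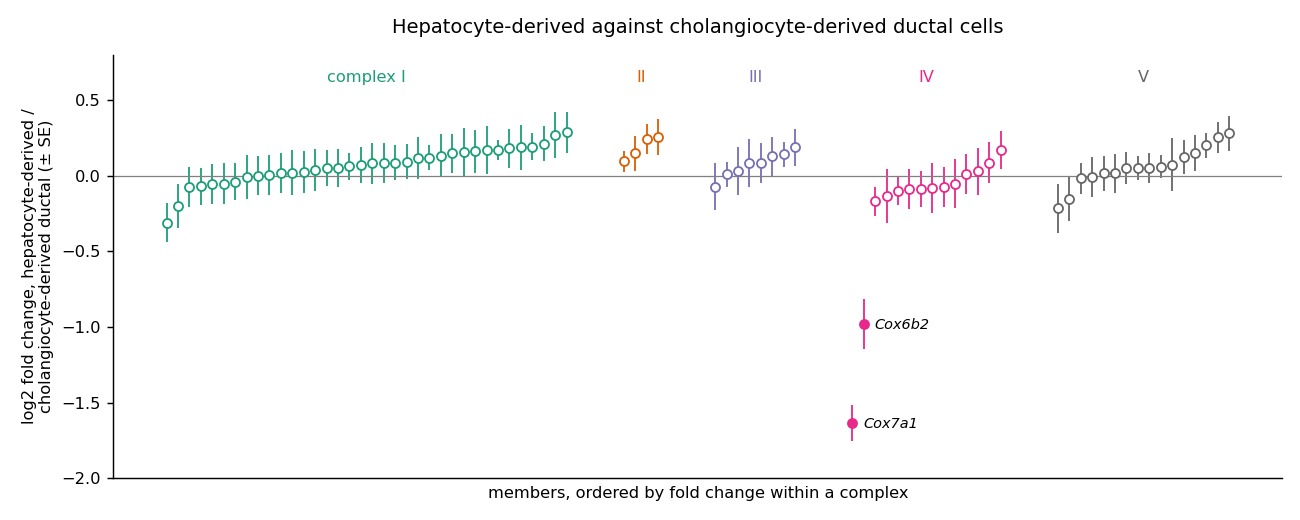
Log2 fold change, hepatocyte-derived over cholangiocyte-derived ductal cells (5 libraries each), of the 78 tested members, ordered within each complex, with the SE of the limma fit as bars. Filled points are called; apart from Cox7a1 at -1.63 and Cox6b2 at -0.98 the members lie between -0.31 and 0.29.

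Markers of stellate cells and pericytes also differed between the ductal groups, and muscle isoforms are known from contractile cells, so those values stand beside Cox7a1. Of 12 tested markers of a list of 15, 7 were called lower and 2, Rgs5 and Kcnj8, higher in hepatocyte-derived than in cholangiocyte-derived ductal cells, beside the 21% and 15.1% of all genes. The summed list held 0.204% to 0.349% of all RPKM in hepatocyte-derived and 0.119% to 0.194% in cholangiocyte-derived ductal cells, against 0.00203% to 0.0258% in hepatocytes, and Higd1b was at 0 in every hepatocyte-derived and hepatocyte library. Most of each ductal sum was Rgs5, which had 952.75 to 1613.15 RPKM in hepatocyte-derived and 480.81 to 843.79 RPKM in cholangiocyte-derived ductal cells. The mean of log2(RPKM + 1) over the list, in which each gene counts alike, went the other way, at 1.604 to 2.09 in hepatocyte-derived and 1.93 to 3.70 in cholangiocyte-derived ductal cells, against 0.58 to 2.35 in hepatocytes. The part of these cells in the Cox7a1 difference was not tested. Without the 3 libraries richest in transcripts of other cells (cholangiocyte-derived 118 and the cholangiocyte-derived column numbered 220, hepatocyte 118), the Cox7a1 log2 fold change between the ductal groups was -1.76.

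Lists of other mitochondrial genes held calls in both directions as deposited and were almost wholly lower after rescaling. In hepatocyte-derived ductal cells against hepatocytes, 9 of 17 tested genes of pyruvate dehydrogenase and the citric acid cycle were called lower and 2 higher, with a median log2 fold change of -0.28. Fumarase Fh1 had -1.21 and the succinyl-CoA ligase subunit Suclg2 had -1.35, both called. Of 75 mitochondrial ribosomal proteins, 21 were lower and 10 higher, of 20 import genes 9 were lower and 3 higher, and of 29 assembly factors 10 were lower and 7 higher. Over all genes 14.8% were lower and 66.2% higher. After rescaling, 17 of the 17 citric acid cycle genes were called lower, 73 of the 75 mitochondrial ribosomal proteins lower and 1 higher, 19 of the 20 import genes lower and 1 higher, and 28 of the 29 assembly factors lower, beside 36% lower and 37.9% higher of all genes. In cholangiocyte-derived ductal cells the same lists had 9 lower and 3 higher, 33 lower and 11 higher, 9 lower and 3 higher, and 9 lower and 6 higher, beside 17.4% and 67.1% of all genes. After rescaling they had 17, 72, 18 and 29 called lower there, with 1 import gene called higher.

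The count for the mitochondrial ribosomal proteins as deposited rested on hepatocyte library 118. In hepatocyte-derived ductal cells, 23 were called higher without it and 18 lower (median log2 fold change 0.027, and -0.097 with all libraries). In cholangiocyte-derived ductal cells 21 were then higher and 26 lower. Import genes called higher numbered 5 in each ductal group without that library.

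Regulators of mitochondrial gene expression were mostly called higher as deposited, as were most genes. Of 16, hepatocyte-derived ductal cells had 12 called higher and 0 called lower (limma, also 0 lower at an unadjusted p under 0.05; median log2 fold change 0.48), beside 66.2% higher and 14.8% lower of all genes. After rescaling 4 were higher and 9 lower (median -0.26), beside 37.9% and 36% of all genes. Nrf1, the factor whose core motif is shown above, averaged 12.2 ± 0.437 RPKM in hepatocyte-derived and 11.3 ± 1.27 RPKM in cholangiocyte-derived ductal cells (SD, n = 5 each), against 4.58 ± 0.658 RPKM in hepatocytes (SD, n = 4). Its log2 fold changes were 1.25 (adjusted p = 1.63e-08) and 1.14 (adjusted p = 3.10e-08), and 0.56 and 0.43 after rescaling. Ppargc1a, a coactivator of mitochondrial biogenesis, had 0.88 and 0.94 as deposited and 0.28 and 0.31 after rescaling. Tfam, which packages and transcribes mitochondrial DNA, had -0.0205 (adjusted p = 0.854) and -0.36 (adjusted p = 0.00264), and it was higher in hepatocyte-derived than in cholangiocyte-derived ductal cells by 0.34 (adjusted p = 0.00767).

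Among carriers and partners of the chain outside the name pattern, 8 of 14 were called lower and 4 higher in hepatocyte-derived ductal cells, beside 14.8% and 66.2% of all genes. After rescaling 11 were lower and 2 higher, beside 36% and 37.9% of all genes. Slc25a4, the muscle form of the ADP/ATP carrier, had 215.77, 198.85, 188.19, 191.27 and 183.95 RPKM in hepatocyte-derived ductal cells, 140.84, 168.72, 132.36, 148.45 and 126.93 RPKM in cholangiocyte-derived ductal cells, and 27.64, 12.68, 16.79 and 4.54 RPKM in hepatocytes, with log2 fold changes over hepatocytes of 3.81 and 3.36, both called. Atpif1, the inhibitor of ATP synthase, averaged 243 ± 11.8 RPKM in hepatocyte-derived and 254 ± 29.4 RPKM in cholangiocyte-derived ductal cells (SD, n = 5 each), against 71.8 ± 30.9 RPKM in hepatocytes (SD, n = 4), with log2 fold changes of 1.83 and 1.89 (1.04 and 1.07 after rescaling). Ucp2, an uncoupling protein family member, averaged 17.0 RPKM in hepatocyte-derived and 95.2 RPKM in cholangiocyte-derived ductal cells, a log2 difference of -2.43 (limma adjusted p = 0.000147).

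Transcript length moved with the fold change over hepatocytes, and members are short, with a median of 731 nucleotides. Among all tested genes, the median log2 fold change in hepatocyte-derived ductal cells was 0.00 for transcripts under 700 nucleotides (267 genes) and 0.79 for those of 2000 or more. Members in the same classes had medians of -0.71 (35 members) and -0.49 (7 members). Of the members under 700 nucleotides 85.7% were called lower, beside 32.2% of all genes of that length. Hepatocyte library 118 exceeded the other hepatocyte libraries by a median of 0.69 on the log2 scale for genes under 700 nucleotides and fell below them by 0.08 for those of 2000 or more. Without it, the members' medians in those 2 classes were -0.57 and -0.38, and those of all genes 0.16 and 0.76.

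**Figure D5:**
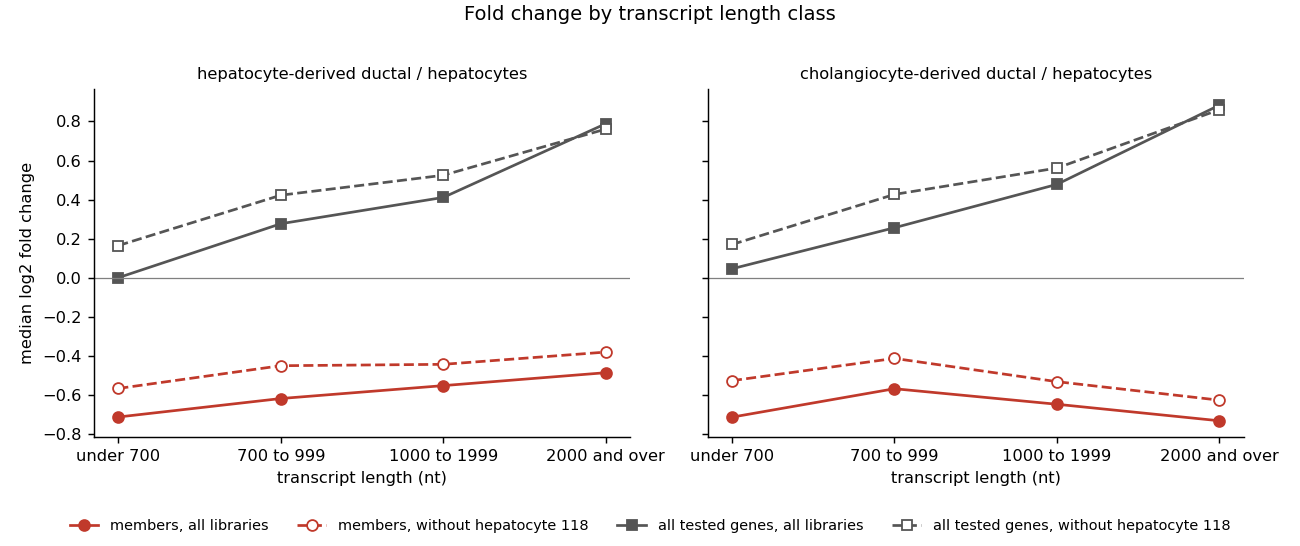
Median log2 fold change over hepatocytes by transcript length class in nucleotides, for members and for all tested genes, with all libraries (filled) and without hepatocyte library 118 (open), for each ductal group. The members lie below all genes of the same length in every class, at -0.71 against 0.00 under 700 nucleotides in hepatocyte-derived ductal cells.

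Reads shared with near-identical copies could also shift single members. The 44 tested members with under 10% of their 36-base words in other genes had a median log2 fold change of -0.58 in hepatocyte-derived ductal cells over hepatocytes, the 26 with 10% to 50% had -0.67, and the 8 with more had -0.53. Apart from Ndufa4l2, 7 members overlap another gene in mm9, among them Atp5f1 with Wdr77, so their reads may include those of the neighbour.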

How the data were processed

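RNA of 14 sorted samples was made into libraries with the Illumina TruSeq RNA kit v2, per the labels' protocols, a kit that selects poly-A RNA and does not mark strand. Bowtie 0.12.7, CASAVA and mm9 are named in the submitters' processing notes. The authors deposited 1 table of RPKM values with 26005 rows; how reads were counted and shared between copies is not given in the sources used here. Several rows shared a symbol for 3507 of 20377 symbols, and the row of highest mean was kept. The table gives no read totals, and the spacing of its low values, rounded to 2 decimals, gave no clear depth, so no counting intervals are given. The 2 columns numbered 220 match no sample number (the labels have 120) and were placed by group only.

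A linear model of the 3 groups was fitted to log2(RPKM + 1) by limma 3.58.1 in R 4.3.3, with a trended prior and two-sided tests. It covered the 12638 genes that reached 1 RPKM in 4 or more libraries. Genes with an adjusted p under 0.05 are called. Fold changes on this scale understate those of low genes. The fit was tested on simulated data. Isoform shares used exact permutation tests over libraries. Figures and tables used Python 3.11.15 with pandas 2.3.3 and matplotlib 3.10.9. Alternatives were median-ratio rescaling, quantile normalization, pseudocounts 0.1 and 5, no filter, the mean of all rows, 2-group fits, library weights, a sample-number block, and leaving out libraries.

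Same-numbered libraries deviated together between the ductal groups (correlations 0.797, 0.212 and 0.424 for numbers 219, 225 and 611) and between cholangiocyte-derived ductal cells and hepatocytes (0.512, 0.133 and 0.225 for 118, 225 and 611), which pairs them by a rule of over 0.1 in every pair. Between hepatocyte-derived ductal cells and hepatocytes the rule was not met, through number 248 alone (0.129, 0.0208 and 0.193 for 225, 248 and 611). The main limma fit and the permutation tests of the isoform shares took no account of pairing.

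The members and lists were chosen with earlier results of these data known. Named members were, per complex, the most abundant, those with the largest and smallest called changes per comparison, all of complex II, the isoform pairs and the matched symbols that are no subunit; of each further list, the genes with the smallest adjusted p and preset regulators. Ndufa6, Ndufs1, Uqcrfs1 and members that lost or missed a call were named after their values were seen. Of the listed symbols, 9 were not found in the table.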

Additional observations from a re-analysis of the deposited data

Results flagged for a closer look

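Hepatocyte library 118 lay far above the other 3 hepatocyte libraries for 19 named members and 5 sums. In all, 111 groups of values were examined, of which chance would single out about 1 in 20 if they were independent. They are not, as every hepatocyte group holds this library and the sums hold the same members. The ductal groups cannot single it out. The whole chain held 2.88% of its RPKM over the kept rows, against 2.19% to 2.25% in the others. Complex I held 0.979% (others up to 0.726%), complex III 0.396% (up to 0.289%), complex IV 0.589% (up to 0.439%) and complex V 0.771% (up to 0.664%). In complex I, Ndufa1 had 214.13 RPKM there, Ndufa11 18.84 RPKM, Ndufa4 909.26 RPKM, Ndufb9 472.15 RPKM and Ndufv2 98.63 RPKM. In complex II, Sdhb had 232.14 RPKM, Sdhc 227.67 RPKM and Sdhd 282.3 RPKM, while Sdha, at 238.87 RPKM, lay within the range of the others. In complex III, Uqcr11 had 331.49 RPKM, Uqcrc1 245.09 RPKM and Uqcrq 719.26 RPKM. In complex IV, Cox4i1 had 893.65 RPKM, Cox5a 326.92 RPKM, Cox6b1 659.94 RPKM, Cox7a2 259.04 RPKM, Cox7a2l 73.34 RPKM and Cox8a 409.76 RPKM. In complex V, Atp5f1 had 168.31 RPKM and Atp5k 295.07 RPKM. The same library was higher than the others by a median of 0.69 on the log2 scale over all 267 tested genes with transcripts under 700 nucleotides, and its macrophage marker Emr1 stood at 21.3 RPKM, against 0.2 to 0.46 RPKM in the others; the part of either in these values was not tested.

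Cox6b2 in hepatocyte-derived library 611, at 0.79 RPKM, lay far below the other 4 libraries of its group, at 1.77 to 1.96 RPKM.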

How the results depend on the processing

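Scaling changed the size of the comparisons with hepatocytes and the sign of some members, while the members' medians stayed negative under every scaling tried. Quantile normalization turned the sign of 9 of the 78 members in each comparison with hepatocytes. Rescaling turned that of 4 in hepatocyte-derived and 5 in cholangiocyte-derived ductal cells. These counts leave out members whose sign turned without a call in either fit. For hepatocyte-derived ductal cells the members' median of -0.62 became -1.38 after rescaling, -0.41 after quantile normalization, -0.52 with library weights and -0.46 without the 3 libraries rich in transcripts of other cells. The members called higher, 3 as deposited, numbered 1 after rescaling, 5 with library weights, 5 without those 3 libraries and 1 without the symbols that encode no subunit. For cholangiocyte-derived ductal cells the median became -1.46, -0.44 and -0.49 (rescaled, quantile, without the 3 libraries), and the members called higher numbered 2 after rescaling and 3 without the symbols that encode no subunit. Between the ductal groups, 4 members were called higher after rescaling, 8 after quantile normalization, 1 without the filter, 7 in the fit on the 2 groups and 12 with library weights, and 4 were called lower after quantile normalization and 4 with library weights. The cause was not tested.

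Leaving out 1 library at a time, the medians ranged from -0.67 to -0.46 and from -0.71 to -0.52 against hepatocytes and from 0.03 to 0.09 between the ductal groups, the higher counts from 3 to 5, 4 to 7 and 0 to 9, and the lower counts from 63 to 67, 62 to 69 and 2 to 3. The isoform differences, in percentage points, ranged for Cox7a1 from 2.07 to 2.41 (hepatocyte-derived ductal cells minus hepatocytes), 14.3 to 16.9 (cholangiocyte-derived minus hepatocytes) and -14.6 to -12.0 (between ductal groups). For Cox6b2 they ranged in the same order from 0.457 to 0.572, 1.36 to 1.43 and -0.937 to -0.822, and for Ndufa4l2 from -0.145 to -0.114, -0.0521 to -0.00602 and -0.122 to -0.0758. Without the 3 libraries they were 2.07, 17.2 and -15.1 for Cox7a1, 1.40 and -0.883 for Cox6b2 (last 2 pairs) and -0.145 and -0.0431 for Ndufa4l2 (pairs with hepatocyte-derived cells), with exact permutation adjusted p of 0.0804 to 0.223, since fewer libraries allow fewer arrangements.

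With the sample number as a replicate block, hepatocyte-derived ductal cells against hepatocytes had 3 members called higher and 64 called lower. The pairing rule was not met in that comparison. Cholangiocyte-derived ductal cells against hepatocytes had 4 and 68, and the ductal groups against each other had 0 and 2. The block together with rescaling gave 1 called higher in each comparison, with medians of -1.35 and -1.48 against hepatocytes.

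Leaving out sign changes without a call in either fit, the named members' directions that turned round did so under rescaling or quantile normalization. Rescaling gave, for hepatocyte-derived and then cholangiocyte-derived ductal cells over hepatocytes, -0.50 and -0.54 for Atp5s, -0.26 and -0.35 for Atp5sl, -0.32 and -0.18 for Cox4nb, and -0.46 and -0.41 for Cox7a2l. With the block as well these were -0.53 and -0.57, -0.23 and -0.38, -0.30 and -0.17, and -0.41 and -0.44. Quantile normalization gave 0.35 and 0.078 for Atp5b, -0.61 and -0.73 for Atp5s, -0.26 and -0.40 for Atp5sl, 0.12 and 0.10 for Cox4i1, -0.52 and -0.44 for Cox4nb, 0.13 and 0.12 for Cox6b1, -0.022 for Cox6b2 (hepatocyte-derived) and 0.015 for Cox8a (cholangiocyte-derived).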

Other observations

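Hypoxia-linked genes were called in both directions between the ductal groups. Of 10 tested, 3 were called higher and 5 lower in hepatocyte-derived than in cholangiocyte-derived ductal cells (limma), beside 15.1% and 21% of all genes. Slc2a1, the glucose transporter GLUT1, averaged 23.1 ± 2.13 RPKM in hepatocyte-derived and 69.0 ± 10.7 RPKM in cholangiocyte-derived ductal cells (SD, n = 5 each), against 12.8 ± 0.858 RPKM in hepatocytes (SD, n = 4). Car9, a carbonic anhydrase, averaged 0.736 RPKM in hepatocyte-derived and 7.36 RPKM in cholangiocyte-derived ductal cells, against 0.140 RPKM in hepatocytes. Ldha, the muscle-type subunit of lactate dehydrogenase, went the other way, with 157 ± 13.3 RPKM in hepatocyte-derived and 104 ± 9.92 RPKM in cholangiocyte-derived ductal cells (SD, n = 5 each), against 368 ± 34.3 RPKM in hepatocytes (SD, n = 4). The log2 difference between the ductal groups was -1.53 for Slc2a1, -2.22 for Car9 and 0.59 for Ldha, all called.

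Cytoplasmic ribosomal protein genes, which are short like the respiratory chain members, were called higher in 47 of 68 and lower in 1 of 68 in hepatocyte-derived ductal cells over hepatocytes as deposited, with a median log2 fold change of 0.48, where 66.2% of all genes were called higher and 14.8% lower. After rescaling, limma called 0 higher (also 0 at an unadjusted p under 0.05) and 17 lower, with a median of -0.26, beside 37.9% and 36% of all genes. Etfa, which passes electrons from fatty acid oxidation towards the chain, averaged 110 RPKM in hepatocyte-derived and 66.1 RPKM in cholangiocyte-derived ductal cells, against 176 RPKM in hepatocytes, and the log2 difference of 0.73 between the ductal groups was called.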
